A study of Mus musculus with 12 samples.

Results

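The old hepatocyte network held single 5 kb bins that the young network lacked, inside cliques that the young network held in part. These old-only bins are the subject here. A bin is a window of 5 kb, and a clique is the study's word for a set of bins joined by contacts. An autosomal bin was taken as a member if the old network held it, the young network did not hold a bin at the same chromosome and start, and its old clique also held at least 2 bins that the young network had. An old clique that met this minimum is called retained. Of the 39968 autosomal bins of the old network, 8540 were absent from the young network (21.4%), and 4461 of those 8540 lay in a retained clique (52.2%, Wilson 95% interval 51.2 to 53.3). The 4461 members covered 22.3 Mb and made up 12.8% of the 34956 bins of retained cliques, the other 30495 being shared with the young network. The members were chosen by the presence or absence of their bin, and of the other bins of their clique, in the 2 networks, so these counts describe the rule. The other 4079 old-only bins lay in old cliques with no young bin (2895) or with 1 (1184), and 24937 autosomal bins were held by the young network only. Most retained cliques with a member spanned more such young-only bins than they held members. The members were fewer in 1259 of these cliques, more in 346 and equal in number in 224.

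The study profiled hepatocytes of male C57BL/6 mice by H3K27ac Hi-ChIP, with 6 libraries from young mice aged 5 months and 6 from old mice aged 25 months. Each age had 2 biological replicates, each run in 3 batches of technical repeats. The deposited tables hold 1 network per age, of 56928 bins for young and 40304 for old, so replicates could not be compared and no p-value is given. Young mice were bought from Charles River at 3 months and old mice came from the stock of the US National Institute on Aging at 23 months, and both were housed for a further 2 months, so age and source stock cannot be told apart. Neither age carried an engineered allele or received an agent. Hepatocytes were taken as the pellet of a slow spin after collagenase perfusion of the liver, and such a pellet can hold other liver cells. The number of contacts behind each network is unknown. In a network from bulk cells, fewer cells that hold a contact and a weaker contact per cell cannot be told apart. Intervals below are Wilson 95% intervals, which cover counting error only and treat neighbouring bins as independent.

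Acetylation of histone H3 at lysine 27 marks active promoters and enhancers. Hi-ChIP joins DNA ends that lie close together in the nucleus and then pulls down fragments that carry a chosen histone mark, so it recovers contacts among marked regions. In liver, such contacts connect promoters of metabolic and plasma protein genes to distal enhancers bound by hepatocyte transcription factors.

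The promoters that lay in member bins are shown first, for genes of 16 pathway lists of liver and ageing biology. Of 232 list genes with a start site in the RefSeq promoter table of GRCm38.p6, 6 had it in a member bin (2.59%), against 2.01% of all 15309 protein-coding genes. The 6 are H2-D1, a major histocompatibility class I gene, Oasl2, an interferon-induced gene related to the oligoadenylate synthetases, Tnf and Cxcl9, an inflammatory cytokine and a chemokine, Apoh, a plasma glycoprotein that binds phospholipid, and Mdm2, the ubiquitin ligase that degrades p53. H2-D1 belongs to a family of near-identical genes, and reads from such copies can be misassigned, so its bin is uncertain. Btaf1, whose product removes TATA-binding protein from DNA, and Ide, the insulin-degrading enzyme, were added after their values were seen, because they lie in the clique with the most members. The 250 bases before each start site follow, 5′ to 3′ on the gene's strand. Where a gene had several annotated start sites in member bins, only the one farthest upstream was used. Other start sites of the gene can differ in sequence. Capitals mark every match to TGACTCA or TGAGTCA (the AP-1 motif), TGACGTCA (the CRE motif), CCAAT, and GGGCGG (an Sp1-type GC box), searched on both strands. None of these motifs contains another.
H2-D1: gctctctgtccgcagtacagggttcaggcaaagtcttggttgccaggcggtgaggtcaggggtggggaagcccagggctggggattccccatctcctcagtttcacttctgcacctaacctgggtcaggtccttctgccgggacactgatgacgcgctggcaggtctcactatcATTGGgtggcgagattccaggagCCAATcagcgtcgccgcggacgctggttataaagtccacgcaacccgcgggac
Oasl2: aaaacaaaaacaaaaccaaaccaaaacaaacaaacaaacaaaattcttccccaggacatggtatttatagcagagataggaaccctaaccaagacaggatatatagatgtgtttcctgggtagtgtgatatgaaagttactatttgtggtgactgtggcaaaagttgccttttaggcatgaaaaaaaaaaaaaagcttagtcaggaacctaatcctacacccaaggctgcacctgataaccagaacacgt
Tnf: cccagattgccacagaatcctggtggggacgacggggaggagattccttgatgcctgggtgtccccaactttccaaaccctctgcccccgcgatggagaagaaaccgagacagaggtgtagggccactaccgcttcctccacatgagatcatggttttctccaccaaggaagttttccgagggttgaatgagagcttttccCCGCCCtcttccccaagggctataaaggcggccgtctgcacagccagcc
Cxcl9: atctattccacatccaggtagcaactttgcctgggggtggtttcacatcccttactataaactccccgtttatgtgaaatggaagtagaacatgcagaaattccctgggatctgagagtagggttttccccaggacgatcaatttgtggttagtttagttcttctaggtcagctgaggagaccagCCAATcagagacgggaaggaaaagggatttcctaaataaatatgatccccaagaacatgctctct
Apoh: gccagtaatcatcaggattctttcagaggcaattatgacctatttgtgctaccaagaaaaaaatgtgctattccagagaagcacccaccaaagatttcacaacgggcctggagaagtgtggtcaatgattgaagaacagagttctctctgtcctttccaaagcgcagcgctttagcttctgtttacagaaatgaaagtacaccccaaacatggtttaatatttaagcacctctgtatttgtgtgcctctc
Mdm2: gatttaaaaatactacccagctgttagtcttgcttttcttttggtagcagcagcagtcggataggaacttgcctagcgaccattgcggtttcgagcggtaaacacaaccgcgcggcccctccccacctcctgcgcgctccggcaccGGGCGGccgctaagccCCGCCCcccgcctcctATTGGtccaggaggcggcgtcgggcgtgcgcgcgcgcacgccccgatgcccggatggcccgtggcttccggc
Btaf1: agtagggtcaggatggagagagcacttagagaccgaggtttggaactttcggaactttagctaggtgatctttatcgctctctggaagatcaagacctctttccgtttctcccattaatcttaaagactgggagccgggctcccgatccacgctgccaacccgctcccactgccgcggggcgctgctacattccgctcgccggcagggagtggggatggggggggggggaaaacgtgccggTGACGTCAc
Ide: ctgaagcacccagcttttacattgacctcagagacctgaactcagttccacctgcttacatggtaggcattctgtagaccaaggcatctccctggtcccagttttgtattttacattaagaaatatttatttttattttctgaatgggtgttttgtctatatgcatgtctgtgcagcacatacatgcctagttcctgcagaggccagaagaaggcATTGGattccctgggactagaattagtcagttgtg

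Each of these 8 windows lay wholly inside 1 member bin. The H2-D1 window is at chr17:35262844-35263093 (plus strand) and the Tnf window at chr17:35202008-35202257 (minus strand). Both fell in 1 old clique of 20 bins, of which 8 were members and 12 were shared with 4 young cliques. The H2-D1 bin was 5 kb from the nearest young bin and the Tnf bin 15 kb from it. The deposited gene column listed both genes with the 20-bin clique in old and with no clique in young. The H2-D1 window held 2 CCAAT matches and the Tnf window 1 GC box.

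The Oasl2 window is at chr5:114896684-114896933 (plus strand), in a clique of 46 bins whose 38 shared bins all came from 1 young clique of 55. Its bin was the first of that clique, 15 kb from the nearest young bin. The Cxcl9 window is at chr5:92328080-92328329 (minus strand), in a clique of 41 bins whose 34 shared bins came from a young clique of 112. Its bin had a young bin on both sides. Of these 2 windows, Cxcl9 held 1 CCAAT match and Oasl2 none of the 4 motifs, which says only that those letters are not in that window.

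The Apoh window is at chr11:108395047-108395296 (plus strand), in a clique of only 3 bins, 2 of them shared. The Mdm2 window is at chr10:117710759-117711008 (minus strand), in a clique of 4 bins whose 3 shared bins came from a young clique of 46. The Mdm2 window was the most GC-rich of the 8, at 65.6%, and held 2 GC boxes and 1 CCAAT match. The Btaf1 window at chr19:36925829-36926078 (plus strand) held a CRE match that starts 9 bases before the start site. The Ide window at chr19:37334545-37334794 (minus strand) held 1 CCAAT match and no CpG. The bins are 5 kb wide, so the networks place each of these promoters in a member bin and do not resolve the printed bases.

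Members mostly lay beside bins that the young network already held. Of the 4461 members, 2693 (60.4%, 58.9 to 61.8) were directly next to a young bin, and 959 (21.5%) had a young bin on both sides. A further step of 1 bin took the share within 10 kb to 75.8%. The median distance to the nearest young bin was 5 kb, the 95th percentile 30 kb and the largest distance 390 kb. Only 21 members (0.471%) were more than 100 kb from the young network.

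Other old-only bins were farther away. Of those 4079 bins, 1059 (26.0%, 24.6 to 27.3) were next to a young bin, their median distance was 20 kb, and 727 (17.8%) were more than 100 kb away. The rule fixes part of this difference, since a member's clique must hold young bins. Old-only bins in cliques with exactly 1 young bin, just outside the rule, fell between, with 46.0% (43.2 to 48.9) next to a young bin, against 17.8% (16.4 to 19.2) in cliques with none. Members exceeded the other old-only bins in this share on 19 of 19 autosomes, with members between 56.8% on chromosome 17 and 69.7% on chromosome 16.

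**Figure D1:**
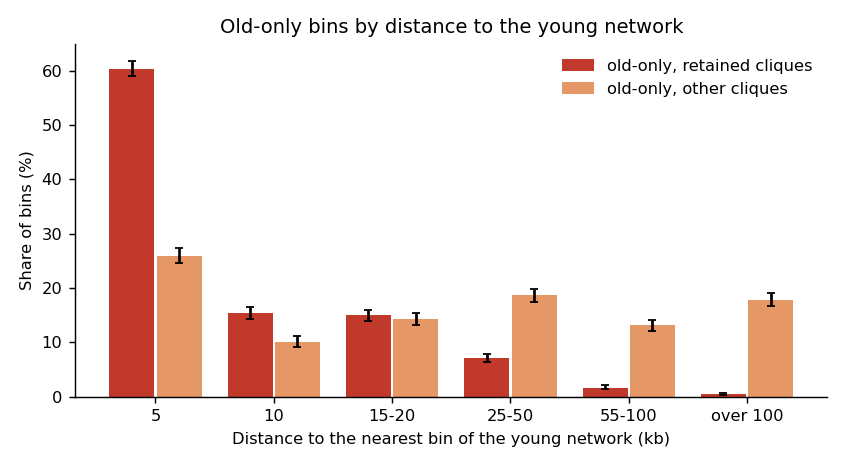
Share of old-only bins (percent, vertical axis) by distance to the nearest bin of the young network (kb, horizontal axis) for the 4461 members in retained cliques (red) and the 4079 old-only bins in other cliques (orange), with Wilson 95% intervals as bars. Of the members, 60.4% sit 1 bin from the young network, while 17.8% of the other old-only bins are more than 100 kb from it.

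The neighbours of members were of several kinds. A shared bin of the member's own old clique was adjacent to 1715 members (38.4%), and a shared bin of another old clique to 282 (6.32%). A bin held by the young network only was adjacent to 1137 members (25.5%), and 747 of all members (16.7%) had such a bin beside them and no shared bin, so that at those places the old network held one bin and the young network the next. No bin of either network was adjacent to 1138 members (25.5%). Most members were single bins: 3708 (83.1%) had no adjacent member of the same clique. The other old-only bins were single still more often, 3800 of 4079 (93.2%, 92.3 to 93.9). The 4461 members formed 4046 runs, of which 290 were 2 bins long, 34 were 3 bins long and 14 were 4 or more, the longest being 11.

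The nearest young bin usually belonged to the young clique that the old clique resembled. For 3720 members (83.4%) it lay in the young clique that gave the most shared bins to the member's old clique, and for 4134 (92.7%) in any young clique that gave one. The interval from the first to the last bin of some young clique covered 3656 members (82.0%) and 1903 of the other old-only bins (46.7%). The rule fixes part of these shares too, since it places bins of a young clique in the old clique of every member. Position in the old clique was also described by the outermost shared bins. Between them lay 2877 members (64.5%, 63.1 to 65.9), and 1584 (35.5%) lay beyond them, at a median of 20 kb and at most 795 kb past the last shared bin. These outer members lengthened 1067 of the 1829 cliques with a member (58.3%).

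Members were spread over many cliques in small numbers. Of 5867 autosomal old cliques, 3647 were retained, and 1829 of these (50.2%, 48.5 to 51.8) held a member while 1818 held none. The number of members per clique with any had a median of 2 and a mean of 2.44. There were 830 cliques with 1 member, 423 with 2, 227 with 3, 317 with 4 to 9 and 32 with 10 or more, and those 32 held 452 members. In 56 cliques the members outnumbered the shared bins, and in 106 the numbers were equal. At the edge of the rule, old cliques with exactly 2 young bins numbered 1457 and held 543 members, 15.7% of their bins. Those with exactly 1 young bin numbered 933 and held 1184 old-only bins, 55.9% of their bins, which do not count as members. A clique joins at least 2 bins, so one with 1 young bin must hold an old-only bin, while one with 2 need not. The contrast between these 2 shares is therefore fixed in large part by the smallest clique size.

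Where members lay varied with clique size. Cliques with a member had a median of 10 bins and retained cliques without one a median of 2. A retained clique of 2 bins cannot hold a member, since both of its bins must be shared. Such cliques lower this second median and the share of members in the smallest class. In cliques of 2 to 4 bins, 10.4% of bins (9.54 to 11.2) were members, and the share was 20.7% (19.5 to 22.0) at 5 to 9 bins, 14.4% at 10 to 19, 10.7% at 20 to 49 and 11.7% at 50 or more. The share of members that lay between shared bins went from 32.0% in the smallest class through 50.9%, 61.0% and 77.8% to 91.4% in the largest. A longer clique has more room between its outermost shared bins, and the rule requires at least 2 of these, so both series depend in part on size itself.

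**Figure D2:**
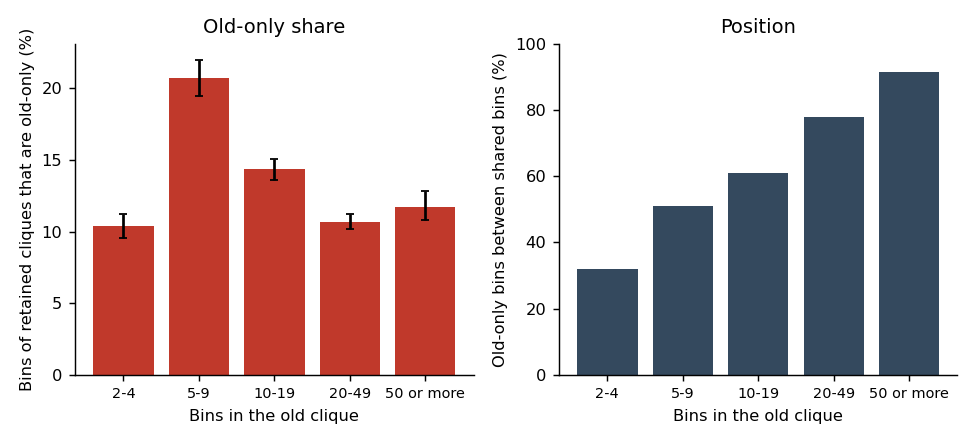
Left, percent of the bins of retained cliques that are members, by number of bins in the old clique, with Wilson 95% intervals as bars. Right, percent of members that lie between the outermost shared bins of their clique, by the same classes: the share goes from 32.0% at 2 to 4 bins to 91.4% at 50 or more.

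Old cliques with a member more often drew on several young cliques. Their shared bins came from 1 young clique in 1393 of 1829 (76.2%, 74.2 to 78.1), from 2 in 363 and from 3 or more in 73 (3.99%). Retained cliques without a member drew on 1 young clique in 1592 of 1818 (87.6%, 86.0 to 89.0) and on 3 or more in 14 (0.770%). Size differs between these groups, so the share that drew on several young cliques was also taken by size. It was 13.0% with and 12.2% without a member at 2 to 4 bins, 28.4% and 16.2% at 5 to 9, 20.4% and 12.4% at 10 to 19, and 30.7% and 7.69% at 20 to 49, the last from only 52 cliques without a member. In old cliques that joined several young ones, 15.4% of bins (14.7 to 16.1) were members, against 11.8% (11.4 to 12.2) in old cliques that drew on 1.

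The clique with the most members lay on chromosome 19 at chr19:36605001-37380000. It held 76 bins, 36 of them members and 40 shared, and the shared bins came from 5 young cliques, 24 from one of 41 bins and 12 from one of 19. Over this interval the young network held 62 of 155 bins and the old network 76. Its members formed 4 of the 6 longest runs on the autosomes: 11 adjacent bins at chr19:36920001-36975000 over Btaf1, 7 at chr19:37315001-37350000 and 6 at chr19:37270001-37300000 over Ide, and 5 at chr19:37355001-37380000 that reach Kif11, a mitotic kinesin. All 11 old bins of Btaf1 were members, and the young network held 2 other bins in that gene. Ide had 14 old bins, of which 11 were members, and 3 young bins. Cpeb3, which encodes an RNA-binding protein that controls translation, had 2 members among 9 old bins and 13 young bins.

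The gene column of this interval changed with the bins. Btaf1, Ide and Kif11 were listed with the 76-bin clique in old and with no clique in young. Fgfbp3, a carrier of fibroblast growth factors, went from a clique of 2 bins in young to the 76-bin clique in old, and Cpeb3 from 19 to 76. Hhex, a homeobox factor of liver development just beyond the interval, was listed with 15 bins in young and 3 in old. Listing follows from which bins a network holds, so it restates the gain of bins. DNA copy number was not measured here, and at this interval a difference in copy number between the stocks that supplied the young and the old mice cannot be told apart from a difference of age. Without this clique 4425 members remained, of which 60.6% were next to a young bin.

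The clique on chromosome 10 at chr10:79680001-81055000 was the largest of the 10 with the most members and had another form. It held 160 bins, with 33 members scattered among 127 shared bins, 120 of which came from a young clique of 185. All 33 members lay between shared bins, and 18 of the 33 were next to a young bin. Abca7, a lipid transporter, had 3 members among 4 old bins, and Hcn2, a pacemaker ion channel, Palm and Misp had 2 each. A clique at chr7:18895001-19970000 held 26 members among 121 bins, of which 4 were in Clptm1, 2 in Gipr, the receptor of the incretin GIP, and 2 in Ercc2, a DNA repair helicase. The only 2 old bins of Gipr and of Ercc2 were members, and neither gene had a young bin.

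A clique of 116 bins at chr17:55955001-57340000 held 25 members. Of the 6 members in Ptprs, a receptor tyrosine phosphatase, 5 were in this clique. All 6 old bins of the gene were members and the young network held none there. Kdm4b, a histone demethylase, had 5 members among 10 old bins, and Ranbp3 3 among 9. In the clique at chr1:92990001-93605000 the members outnumbered the shared bins, 21 to 19. Among its genes were Kif1a, a vesicle kinesin with 5 members among 9 old bins, Mab21l4, whose 3 old bins were all members and which had no young bin, and Agxt, the peroxisomal enzyme that detoxifies glyoxylate, with 1 member among 3. At chr5:134180001-134650000, 15 of 43 bins were members, 6 of them in Gtf2i and 3 in Gtf2ird1, both of the TFII-I transcription factor family, and 2 in Ncf1, a subunit of the phagocyte NADPH oxidase.

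Of the other cliques, 3 resembled that on chromosome 10. The one at chr7:44365001-45710000 held 19 members among 74 bins, with 3 in Tsks and 2 each in Mybpc2, Cpt1c and Gys1, the muscle-type glycogen synthase. The one at chr15:88820001-89500000 held 14 among 68, with 2 each in the kinase genes Mapk11 and Mapk12, and the one at chr8:70140001-70865000 held 13 among 81, with 2 each in Homer3, Crtc1 and Ell. In these 3, at most 1 member lay beyond the outermost shared bins. The clique at chr6:127970001-128185000 was the opposite. All 13 of its members lay beyond its 13 shared bins, 12 of them in Tspan9, a tetraspanin of the cell surface, only 1 was next to a young bin, and the median distance to the young network was 40 kb. All 13 shared bins came from 1 young clique of 14.

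**Figure D3:**
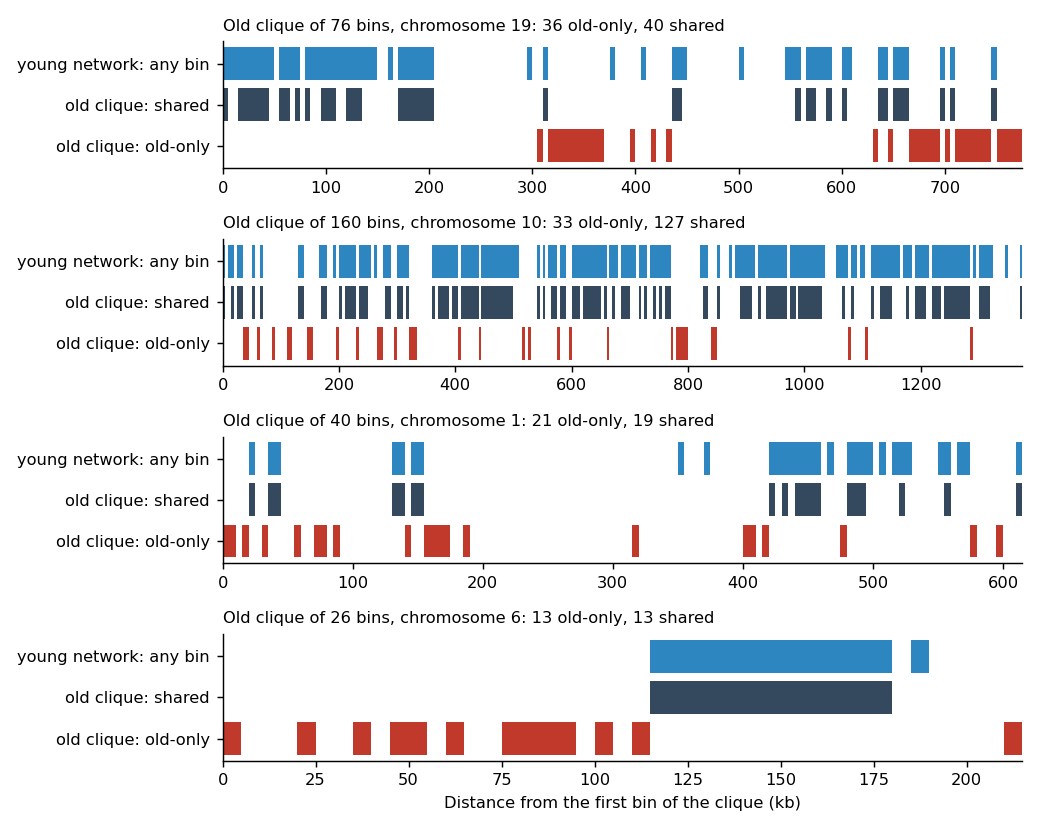
Old cliques drawn to scale from their first bin (kb, horizontal axis), with rows for all bins of the young network (blue), shared bins of the clique (dark) and members (red). On chromosome 19 the members form blocks up to 11 bins long, on chromosome 10 they lie among shared bins in runs of at most 4, on chromosome 1 they number 21 against 19 shared bins, and on chromosome 6 all 13 lie outside the block of shared bins.

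Some smaller cliques also held more members than shared bins. The clique at chr17:47790001-48060000 held 10 members and 9 shared bins, 3 of the members in Foxp4, a forkhead factor, and 1 in Tfeb, a regulator of lysosomal genes. At chr15:84075001-84225000 there were 10 members and 6 shared bins, with 2 members in Pnpla3, a lipid droplet protein. At chr2:35635001-35915000 there were 10 members and 5 shared bins, 8 of the members in Dab2ip, a GTPase-activating protein for Ras. These 3 are examples, chosen after their values were seen.

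Members held fewer promoters than the shared bins of retained cliques, an annotation that the rule did not use. On 16 autosomes with enough genes in the promoter table, 295 of 3873 members (7.62%, 6.82 to 8.49) held the start site of a protein-coding gene, against 4162 of 26418 shared bins (15.8%, 15.3 to 16.2). Among the shared bins of cliques with a member it was 3078 of 19890 (15.5%). The share was 9.81% (8.86 to 10.8) in the other old-only bins and 8.35% (7.99 to 8.73) in young-only bins. Members were lower than shared bins on 16 of 16 autosomes, from 3.64% against 12.3% on chromosome 13 to 10.3% against 16.2% on chromosome 19. Start sites of noncoding genes were also less frequent in members, at 3.80% (3.24 to 4.44), than in shared bins, at 5.17% (4.91 to 5.44), and were at 3.39% (3.16 to 3.64) in young-only bins. The share that overlapped a protein-coding gene differed less, at 71.4% (70.1 to 72.7) of members and 74.3% (73.8 to 74.8) of shared bins.

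**Figure D4:**
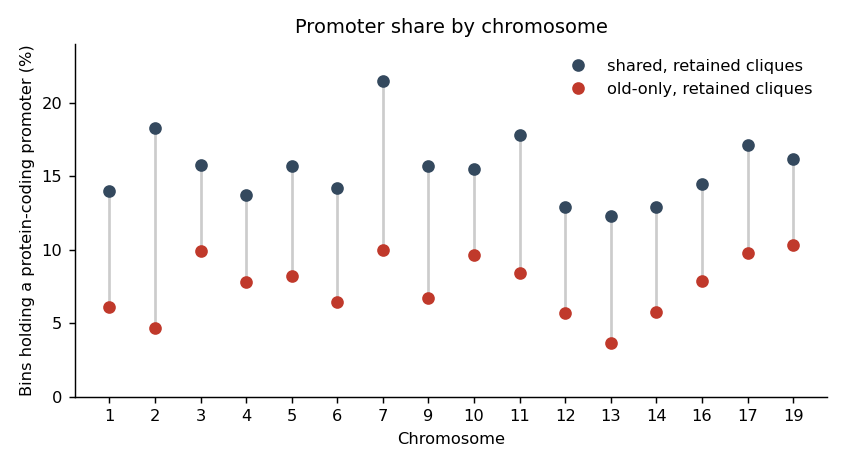
Percent of bins that hold a protein-coding start site (vertical axis) on each of 16 autosomes (horizontal axis), for members (red) and shared bins of retained cliques (dark), joined by grey lines. The member value is the lower one on all 16.

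The difference was largest at the bin itself. At bins 5 kb to either side of a shared bin the promoter share was 10.6% and 10.5%, down from 15.8% at the bin. Around members the order was reversed, with 7.62% at the member, 7.85% and 8.73% 5 kb to either side, and 9.81% and 9.76% at 15 kb. From 10 kb outward the 2 classes lay close together, between 8.31% and 9.81% around members and between 7.91% and 9.28% around shared bins. Young-only bins were at 8.35% at the bin, 7.77% and 7.76% beside it, and 6.44% and 6.72% at 50 kb. The other old-only bins were at 9.81% at the bin, 7.65% and 7.88% beside it, and 6.87% and 6.70% at 50 kb. Both of these classes were thus highest at the bin itself. Because many members lie beside shared bins, part of the profile around one class is the profile of the other.

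**Figure D5:**
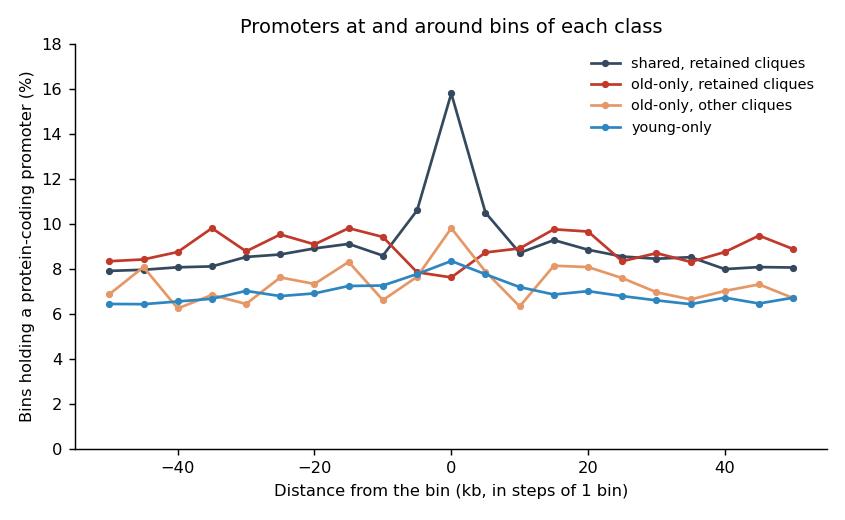
Percent of bins that hold a protein-coding start site (vertical axis) at the bin itself and at up to 50 kb to either side in steps of 1 bin (horizontal axis), for 4 classes of bins. Shared bins peak at 15.8% at 0, while members are at 7.62% there and reach 9.81% at 15 kb.

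The lower promoter share of members held across most kinds of clique. In cliques of 2 to 9 bins it was 8.09% against 19.1% in shared bins, at 10 to 19 bins 6.58% against 15.6%, and at 20 to 49 bins 6.73% against 13.7%. In cliques of 50 or more the values came closest, at 11.5% (8.77 to 15.0) against 15.8% (14.5 to 17.1). Members beyond the outermost shared bins held a promoter in 10.4% (8.92 to 12.1) and members between them in 6.06% (5.19 to 7.07). Members next to a young bin were at 7.23% (6.24 to 8.35) and members farther away at 8.21% (6.94 to 9.69), intervals that overlap. Shared bins directly beside a member were at 14.8% (13.2 to 16.5), close to the 15.8% of all shared bins. The median distance to the nearest protein-coding start site was 20 kb from members and 15 kb from shared bins.

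The promoters in member bins also differed in base composition from those in shared bins. A window of 300 bases, from 250 before to 50 after the start site, was called CpG-rich at a GC content of at least 50% and an observed over expected CpG ratio of at least 0.6. Each gene gave a single window per class of bins, at the start site farthest upstream among those in that class. CpG-rich windows made up 51.0% (45.4 to 56.5) of 308 genes with a promoter in a member, 67.1% (65.7 to 68.5) of 4302 genes with one in a shared bin, and 46.8% of all 15309 genes. The median CpG ratio was 0.633 in members and 0.758 in shared bins. The GC box GGGCGG was present in 49.7% (44.1 to 55.2) of member windows, 62.8% (61.4 to 64.3) of shared windows and 46.9% of all.

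Of the other motifs, CCAAT and TGACGTCA had similar shares in the classes. CCAAT was found in 37.7% of member windows, 39.0% of shared windows and 39.1% of all, and TGACGTCA in 2.60%, 3.16% and 2.36%. The AP-1 motif was found in 18 member windows (5.84%, 3.73 to 9.05), in 3.53% (3.02 to 4.13) of shared windows and in 4.62% of all. The first 2 intervals overlap, and such overlap does not decide whether these shares differ. CpG-rich windows were 56.9% (51.8 to 62.0) of the promoters in other old-only bins and 62.7% (60.5 to 64.8) of those in young-only bins. A match is a run of letters and shows no binding.

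The deposited gene column followed the gained promoters. Of 287 genes with a promoter in a member and none in a shared bin, 261 (90.9%) were listed with an old clique and 42 (14.6%) with a young one, and 225 (78.4%) were listed in old only. Among all 9407 protein-coding genes listed at either age, 9.33% were listed in old only. Of 4281 genes with a promoter in a shared bin of a retained clique and none in a member, 0.350% were listed in old only. Which genes a clique lists depends on the bins it holds, so these shares restate the gain of promoter bins and are no separate result.

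Members lay in 2384 of 20661 autosomal protein-coding genes (11.5%), or 24.4% of the 9783 genes with any old bin. Most of these genes had 1 member (1709) or 2 (443). The 60 genes with 5 or more were long, with a median length of 150 kb, against 36.6 kb for genes with 1 to 4 and 18.4 kb for genes with old bins but no member. In 470 genes every old bin was a member, and 352 genes with a member had no young bin. Tspan9 had 12 members among 27 old bins, Nos1ap, an adaptor of neuronal nitric oxide synthase, 11 among 26, and Btaf1 and Ide 11 each.

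The genes with the most members differed in what the young network held there. Nos1ap had 25 young bins and 26 old bins, with 15 shared. Nav2 had 48 young bins and 38 old bins, with 29 shared and 8 members. Both genes thus also held young bins that were absent from the old network. Tns3, a focal adhesion protein, had 8 members among 23 old bins and 25 young bins. Celsr1, a cadherin of planar cell polarity, had 7 members among 12 old bins and 5 young bins. Ptprs and Nfasc, a neural cell adhesion molecule, had 6 members each and no young bin, and the other 5 old bins of Nfasc lay in cliques that were not retained.

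Genes of the 16 pathway lists held a member more often than all genes did, but less often among genes with an old bin. A member lay in 49 of 315 list genes (15.6%, against 11.5% of all genes), or in 49 of the 278 with any old bin (17.6%, 13.6 to 22.5), against 24.4% (23.5 to 25.2) of all genes with an old bin. The median number of members per gene was 0 in the lists and over all genes. In contrast, 73.3% of list genes in the promoter table had a promoter in a shared bin, against 28.1% of all genes. For the counts by list that follow, the share over all genes is the 11.5% given above.

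Bile acid genes had a member in 4 of 16. Abcb11, the bile salt export pump, had 4 members among 7 old bins and 7 young bins, and Abcg5, a sterol efflux transporter, 2 among 3. Akr1d1, a steroid reductase of bile acid synthesis, and Slco1b2, an organic anion uptake transporter, had 1 each. Glucose genes had a member in 4 of 18: Pgm1, a phosphoglucomutase, had 3 among 8 old bins, Insr, the insulin receptor, 2 among 21, and Irs2 and Ugp2 had 1 each. Hepatocyte transcription factors had a member in 4 of 23, among them Gata4, Nr5a2 and Onecut1 with 1 each. All of the genes named in these 3 lists had young bins. Insr and Irs2 lie on chromosome 8, which was not used for start sites, so their promoters were not placed. None of the other named genes had its promoter in a member.

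Interferon response genes had a member in 5 of 23, namely H2-D1, Irf7, Irf9, Oasl2 and Usp18 with 1 each. Irf7, a master regulator of type I interferon genes, had 2 old bins and no young bin. Its promoter lay in the old-only bin that was not a member. In the senescence-associated secretory list Tnf had 2 members and no young bin, and Cxcl9 and Tgfb1 had 1 each, 3 genes of 20. NF-kappaB signalling had Ikbkb with 2 and Chuk and Relb with 1 each, 3 of 15. In the p53 list Mdm2, Tnfrsf10b, a death receptor, and Zmat3 had 1 each, 3 of 20, and the last 2 had no young bin. AP-1 and immediate early genes had a member in 2 of 19, Atf3 and Klf6.

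The metabolic and secretory lists were similar. Amino acid genes had a member in 3 of 20, with 2 in Ass1, the urea cycle argininosuccinate synthase, and 1 each in Agxt and Bhmt. Xenobiotic genes had one in 3 of 20, with 2 in Cyp3a11 and 1 each in Ces3a and Cyp3a25, and the Cyp3a genes are close copies whose bins are uncertain. Lipid synthesis had a member in 4 of 24 (Elovl6, Fdps, Lss and Mlxipl, 1 each), fatty acid oxidation in 2 of 20 (2 in Hadha, 1 in Plin2) and plasma proteins in 2 of 20 (Apoh and Plg). Clock genes had one in 2 of 18, with 3 in Cry2, a repressor of the clock, and 2 in Rora. A run of 5 members at chr2:92390001-92415000 lay over Cry2 and the neighbouring Mapk8ip1, and Slc25a13, the mitochondrial aspartate-glutamate carrier, held another run of 5 at chr6:6135001-6160000. The acute phase list had members in 2 of 23 (Fgl1 and Stat3) and the growth hormone list in 3 of 17 (Cux2, Egfr and Socs2).

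Marker lists were used to look for other liver cells. None of 8 hepatocyte markers held a member, although 7 of the 8 had an old bin. None of 7 Kupffer cell, 8 stellate cell, 6 cholangiocyte or 5 lymphocyte markers held one. Only 1 Kupffer cell and 2 lymphocyte markers had an old bin, and no stellate or cholangiocyte marker had one at all. A gene without an old bin cannot hold a member. Of 8 markers of sinusoidal endothelium, 5 had an old bin and 2 held a member: Eng, a coreceptor for transforming growth factor beta, had 3 members among 4 old bins and no young bin, and Stab2, a scavenger receptor, had 1 member among 5 old bins and 8 young bins. Whether the share of endothelial cells differed between the ages was not tested.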

How the data were processed

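Hi-ChIP networks of young and old hepatocytes were compared, 1 pooled network per age from 6 libraries each. Per the file headers, the authors deposited for each age a node table with positions and a clique table with node numbers, attached genes and node names. These values carry no read counts, and no normalization is stated. Bowtie2, HiC-Pro, mm10 and GRCm38 are named in the submitters' processing notes, without versions. The sources used here do not give the loop caller, the clique method or how libraries were pooled, so depth is unknown and precision was given as Wilson 95% intervals for shares of bins. Whether a bin is called present can depend on depth as well as on contacts, and this was not tested.

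Bins of both ages were matched by chromosome and start on the 5 kb grid. Gene overlap used RefSeq annotation of GRCm38.p6, and start sites used its promoter table on the 16 autosomes where it covers at least 75% of protein-coding genes (83.5% of genes there). Chromosomes 8, 15 and 18 were not used here for start sites. The members and gene lists were chosen with earlier results of these data known. Named genes come from the 10 cliques with the most members (up to 4 genes each, list genes first), the 8 longest runs and the 4 genes with the most members in each list, and further names are said to be chosen later or are the genes with the most members. Alternatives changed the minimum of young bins, clique size, the share of shared bins, the matching of bins and the gene window. Code ran in Python 3.11.15 with pandas 2.3.3, NumPy 2.4.6, SciPy 1.17.1 and matplotlib 3.10.9, and was tested on simulated networks. Some results that meet the naming rule are not reported here.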

Additional observations from a re-analysis of the deposited data

How the results depend on the processing

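No paired analysis was possible because each age has 1 pooled network, and leaving out replicates could not be run for the same reason. No replicate error is known, the contacts behind each network are unknown, and depth may limit which bins were called. Of 39 values under other settings, 28 stayed close to the reported one (a share within its Wilson interval, a count within 1.5 times) and 11 moved further. Whether a difference between classes of bins changed direction was not part of this count. With at least 1 young bin per clique, 51.0% of members lay between shared bins, 57.4% were next to a young bin, and the shared bins of 85.5% of cliques came from 1 young clique. With at least 5 young bins these values were 72.2%, 63.0% and 76.3%, and with old cliques of at least 10 bins 73.5%, 62.9% and 75.6%. The values reported, or computed over all retained cliques, were 64.5%, 60.4% and 81.8%. If a bin counts as old-only when no young bin lies within 1 bin, 1768 members remained, of which 52.4% lay between shared bins. The members' promoter share ranged from 7.35% to 8.21% over all settings, and that of shared bins from 14.6% to 15.9%. Leaving out the chromosome 19 clique and using start sites of all 18 autosomes of the promoter table were chosen after seeing the data, and gave promoter shares of 7.61% and 7.40%.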

Other observations

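MicroRNA hairpins of the RefSeq table were also placed on the bins of the 16 autosomes used for start sites. Of 844 hairpins there, 26 lay in the 3873 member bins and 174 in the 26418 shared bins of retained cliques. A further 16 lay in the 3477 other old-only bins and 93 in the 21770 young-only bins. For their number of bins, members and shared bins held hairpins about equally often. Those in members included Mir210, a hypoxia-induced microRNA, and Mir195a and Mir497, which are transcribed from 1 cluster. These counts describe position and hold no measure of microRNA level.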
